A study of Mus musculus with 9 samples.

Results

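The genes described here are the interleukins and their receptors in adipose stromal cells of the mouse mammary gland, taken as every gene whose symbol starts with Il and a digit, except Il6, Il6ra and Il6st. The rule used symbols and no measured value, and it found 73 genes on 77 probe sets among 19930 genes on 21762 probe sets that carry exactly 1 gene symbol. Probe sets with several symbols were left out, so Il22 and Il4i1 were not analysed here. Il1r1, Il1rl1, Il2rg, Il11ra1, Il11ra2, Il28a, Il28b and Il28ra were not among the 73 genes either. All cells came from female Balb/c mice, and the labels name no engineered allele and no drug. ASC-N were from nulliparous mice of 8 weeks that had not been housed with males, ASC-L from mice at day 5 of lactation and ASC-I from mice at day 3 of involution, the regression of the gland after weaning. Each stage had 3 arrays, numbered replicate 1 to 3, and the signals are on a log2 scale. The stromal fraction was obtained by enzyme digestion and centrifugation and, per the study's methods, grown for a few passages, so other cells that survive in culture can be present. Per the study's methods the bred mice were mated at 8 weeks of age, so ASC-L and ASC-I came from older mice than ASC-N, and age and stage cannot be told apart. Which mice stand behind each array is not given in the sources used here. The p-values below thus set each difference against the spread between these preparations, not between known mice.

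Interleukins are small secreted proteins through which leukocytes, epithelium and stroma signal to each other. Ligands of the IL-1 and IL-17 families act through receptors that feed into NF-kB and MAP kinases, whereas most other interleukins bind paired receptor chains that use Janus kinases and STAT proteins. Stromal cells of adipose tissue carry interleukin receptors and also make some interleukins. Involution of the mammary gland is known for inflammatory signaling and an influx of macrophages.

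The label was checked against marker genes. The mean signal of 14 adipose stromal and fibroblast markers lay between 10.0 and 11.0 on the 9 arrays, compared with 4.54 to 4.96 for neutrophil markers, 4.93 to 5.14 for T and NK cell markers and 4.74 to 4.85 for B cell markers, although levels of different probes are only roughly comparable. Both epithelial lists were higher on ASC-L replicate 2 (luminal 8.54, basal 8.75) and ASC-I replicate 2 (luminal 7.30, basal 7.48) than on the other 7 arrays, where the luminal list lay between 5.70 and 6.71. An endothelial list of 15 genes was also high on these arrays (7.20 and 6.72) and on ASC-N replicate 1 (6.88), and lay between 5.61 and 5.92 on the other 6. The stromal list had its lowest value, 10.0, on ASC-L replicate 2. Of its 14 markers, 9 were lower and 5 higher in ASC-L than in ASC-N. Pdgfra was the 1 stromal marker past the limits given below, with a log2 difference of -1.22 (unadjusted p = 0.0413 in limma). A list of 31 macrophage markers ranged from 5.87 to 7.66 in ASC-N, from 6.18 to 6.45 in ASC-L and from 6.97 to 8.19 in ASC-I. Relative to ASC-I, 29 of these 31 were lower in ASC-L and 14 of them fell past the limits given below.

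A smaller share of interleukin genes than of all genes was above background. The reference was the 95th percentile, on each array, of 1194 olfactory and vomeronasal receptor genes, which are not expected in this tissue, and it lay between 4.83 and 5.06. On all 3 arrays of at least 1 stage, 35 of the 73 interleukin genes (47.9%) exceeded it, compared with 71.1% of all genes and 4.44% of the reference genes themselves. Receptors passed in 19 of 34 cases and the remaining members, mostly ligands, in 16 of 39. The 5 members with the highest mean signal were all receptor chains, namely Il4ra, Il13ra1, Il10rb, Il1rl2 and Il1rap. Probes differ in how well they hybridize, so this order and the reference are guides to detection and not measures of abundance.

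**Figure D1:**
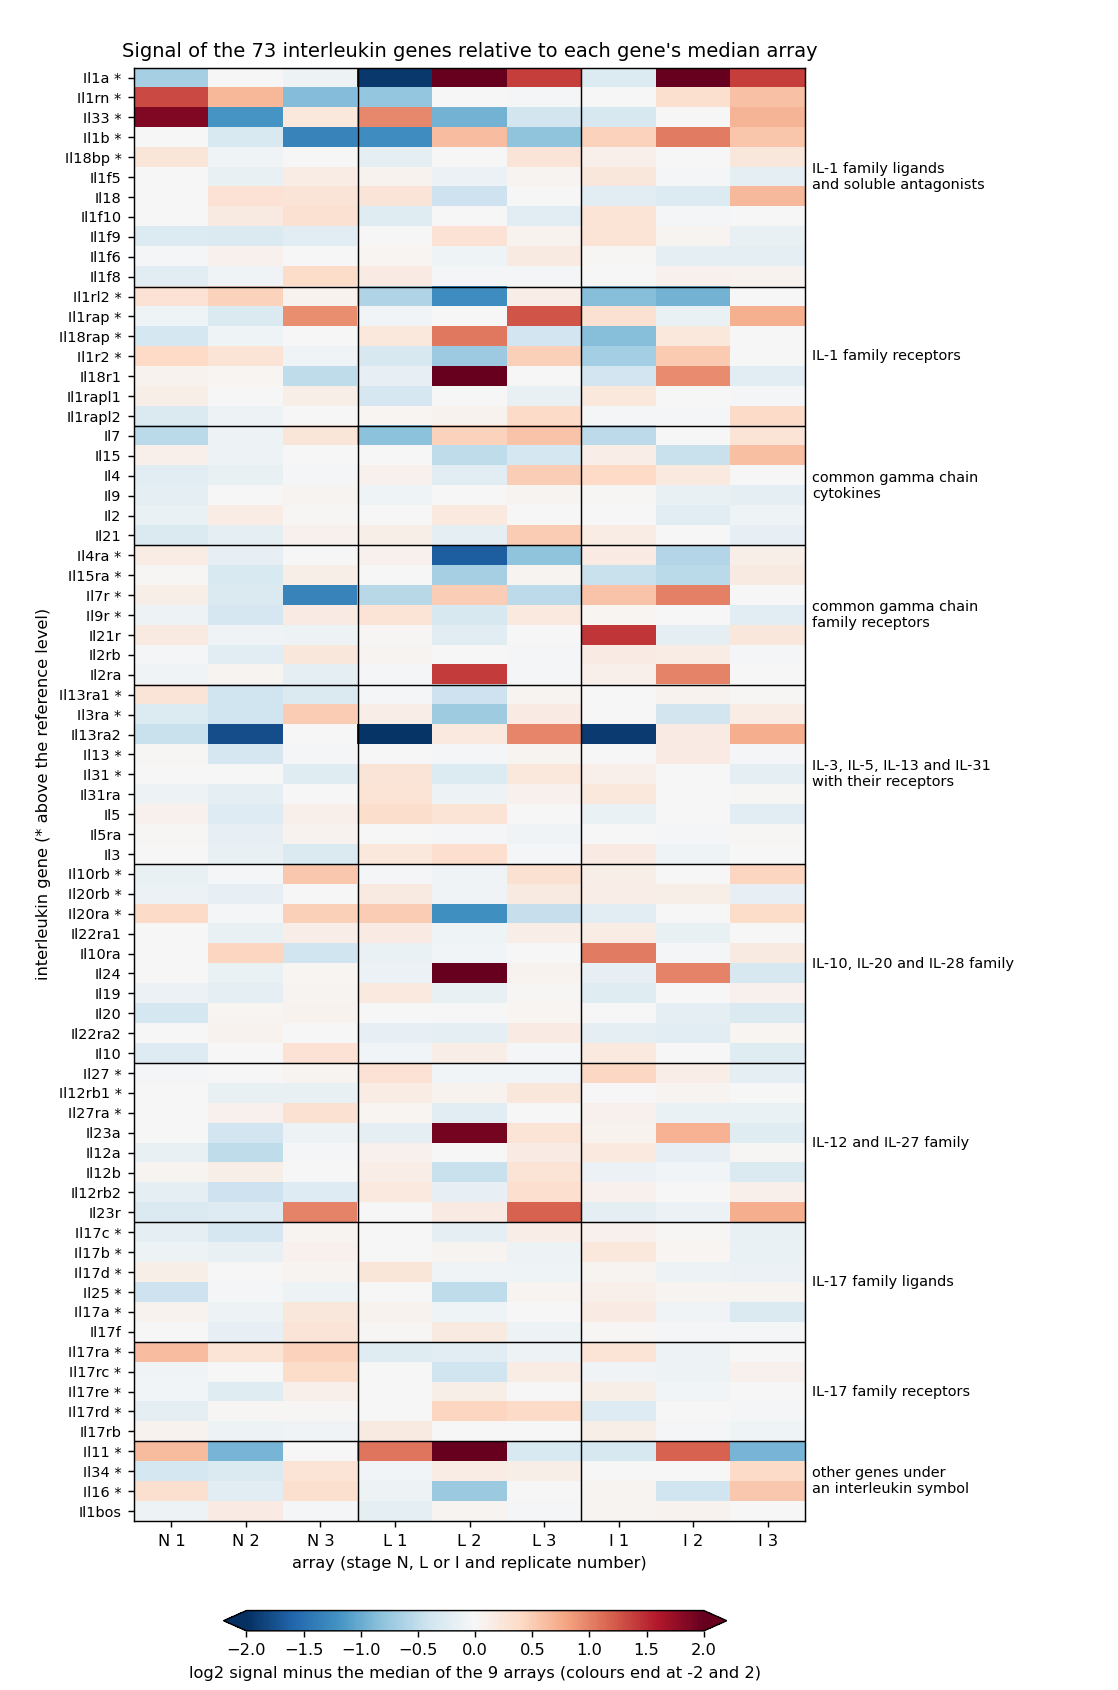
Heat map of the log2 signal of each of the 73 interleukin genes minus that gene's median over the 9 arrays, with genes grouped by role and arrays in columns by stage and replicate number. Asterisks mark the 35 genes above the reference, and the strongest red cells lie in ASC-L replicate 2, where 7 genes were highest and exceeded their median by more than 1.

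By role, the reference was exceeded by 4 of 7 IL-1 family receptors, 4 of 7 receptors of the common gamma chain family and 4 of 5 IL-17 receptors. It was exceeded by 5 of 11 IL-1 family ligands and antagonists, and by none of the 6 common gamma chain cytokines (Il2, Il4, Il7, Il9, Il15 and Il21), whose signals lay between 3.32 and 5.46. Of the IL-10 family 3 of 10 passed, all of them receptor chains, and of the IL-12 family 3 of 8 passed. The IL-17 ligands passed in 5 of 6 cases, with signals of 4.82 to 6.01 that lay close to the reference. Among the remaining lists, 4 of 9 genes of the IL-3, IL-5, IL-13 and IL-31 group passed, as did Il11, Il16 and Il34 of 4 genes outside any family list.

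The comparison of ASC-L with ASC-N addressed which interleukin signals distinguish the lactating from the nulliparous stroma. With limits of an unadjusted p under 0.05 in limma and a change of at least 1.5-fold, Il17ra and Il1rl2 fell in ASC-L and no member rose. Over all genes these limits were passed by 0.457% of genes in the lower direction and 0.171% in the higher direction. After Benjamini-Hochberg adjustment over all genes in limma, 0 members and 0% of all genes passed 0.05, while 7 members and 3.64% of all genes had an unadjusted p under 0.05. The smallest adjusted p of a member was 0.9984. The 3 arrays of ASC-L lay wholly above those of ASC-N for 5 members (4.89% of all genes) and wholly below for 2 (3.7% of all genes). The median difference over the 73 members was 0.05 on the log2 scale, beside 0.01 over all genes. In bulk preparations such as these, fewer cells of a type and less RNA per cell cannot be told apart.

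Il17ra encodes the shared receptor chain through which IL-17A, IL-17F, IL-17C and IL-25 signal, and the gene lies at chr6:120463181-120483731 (GRCm38). Its log2 signal was 8.82, 8.47 and 8.65 in ASC-N, 7.95, 7.99 and 8.09 in ASC-L, and 8.48, 8.10 and 8.20 in ASC-I. Every ASC-L array was lower than every ASC-N and every ASC-I array, and the ASC-I values overlapped those of ASC-N. The difference between ASC-L and ASC-N was -0.63 (SE 0.14, 1.55-fold lower, unadjusted p = 0.00137 in limma, adjusted p = 0.9984). Between ASC-I and ASC-N it was -0.39 (unadjusted p = 0.0211 in limma), short of the fold limit, and between ASC-L and ASC-I it was -0.25 (unadjusted p = 0.108 in limma). The fall stayed past the limits in 8 of the 9 fits that left out 1 array. Without ASC-N replicate 1 it was -0.55, under the fold limit, with an unadjusted p of 0.00712 in limma.

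No partner chain of Il17ra passed the limits, although 1 of them, Il17rb, was not above the reference. Il17rc, its partner for IL-17A and IL-17F, ranged from 6.98 to 7.74 over the 9 arrays and differed between ASC-L and ASC-N by -0.18 (SE 0.17). Il17re, the partner for IL-17C, differed by 0.11 (SE 0.12). Il17rd, a receptor-like regulator also known as Sef, was 0.36 higher in ASC-L than in ASC-I (SE 0.15, unadjusted p = 0.0354 in limma), short of the fold limit. The ligands above the reference, Il17a, Il17c, Il17d, Il25 and Il17b, had differences of at most 0.25 in size in any comparison. None of 8 measured genes of IL-17 signaling outside the rule passed the limits in any comparison.

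Il1rl2 encodes the receptor for the IL-36 cytokines, which are known from skin and other barrier epithelia. The gene lies at chr1:40324589-40367555 (GRCm38), in a cluster with Il1r2, Il18r1 and Il18rap that runs from 40084692 to 40551707. Its log2 signal was 9.56, 9.73 and 9.33 in ASC-N, 8.67, 8.02 and 9.39 in ASC-L, and 8.41, 8.32 and 9.26 in ASC-I. Replicate 3 of ASC-L lay within the range of ASC-N, while all 3 ASC-I arrays lay below it. The difference was -0.85 between ASC-L and ASC-N (SE 0.35, 1.80-fold lower, unadjusted p = 0.0406 in limma, adjusted p = 0.9984) and -0.87 between ASC-I and ASC-N (SE 0.35, 1.83-fold lower, unadjusted p = 0.0356 in limma, adjusted p = 0.9999). Both of these differences rest on the same ASC-N arrays. ASC-L and ASC-I differed by 0.03, with a 95% interval of -0.77 to 0.83. The difference between ASC-L and ASC-N missed the limits in 5 of the 9 fits that left out 1 array. It was -0.84 and -0.75 without ASC-N replicates 1 and 2, -0.83 and -0.51 without ASC-L replicates 1 and 2, and -0.85 without ASC-I replicate 1. The difference between ASC-I and ASC-N missed them in 4, without ASC-N replicate 1 or 2 or ASC-I replicate 1 or 2, with values of -0.87, -0.78, -0.75 and -0.70. With replicate 2 of ASC-L and of ASC-I both left out, the arrays highest in epithelial markers, both missed the limits (unadjusted p = 0.134 for ASC-L and 0.0514 for ASC-I in limma).

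The other measured genes of the Il1rl2 cluster and the ligands of Il1rl2 did not pass the limits. Il1r1 and Il1rl1, also receptors of the IL-1 family, were not analysed here. Il1r2, a decoy receptor that binds IL-1 without signaling, ranged from 4.54 to 5.78 and differed between ASC-L and ASC-N by -0.39 (SE 0.36). Il18rap differed by 0.44 (SE 0.37), with its highest signal, 6.49, on ASC-L replicate 2. The IL-36 agonists Il1f6, Il1f8 and Il1f9 and the antagonist Il1f5 were not above the reference. Within that low range Il1f9 was higher in ASC-L than in ASC-N by 0.38 (SE 0.14, unadjusted p = 0.0207 in limma) and in ASC-I by 0.32 (unadjusted p = 0.0421 in limma), with no overlap of arrays in either case.

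**Figure D2:**
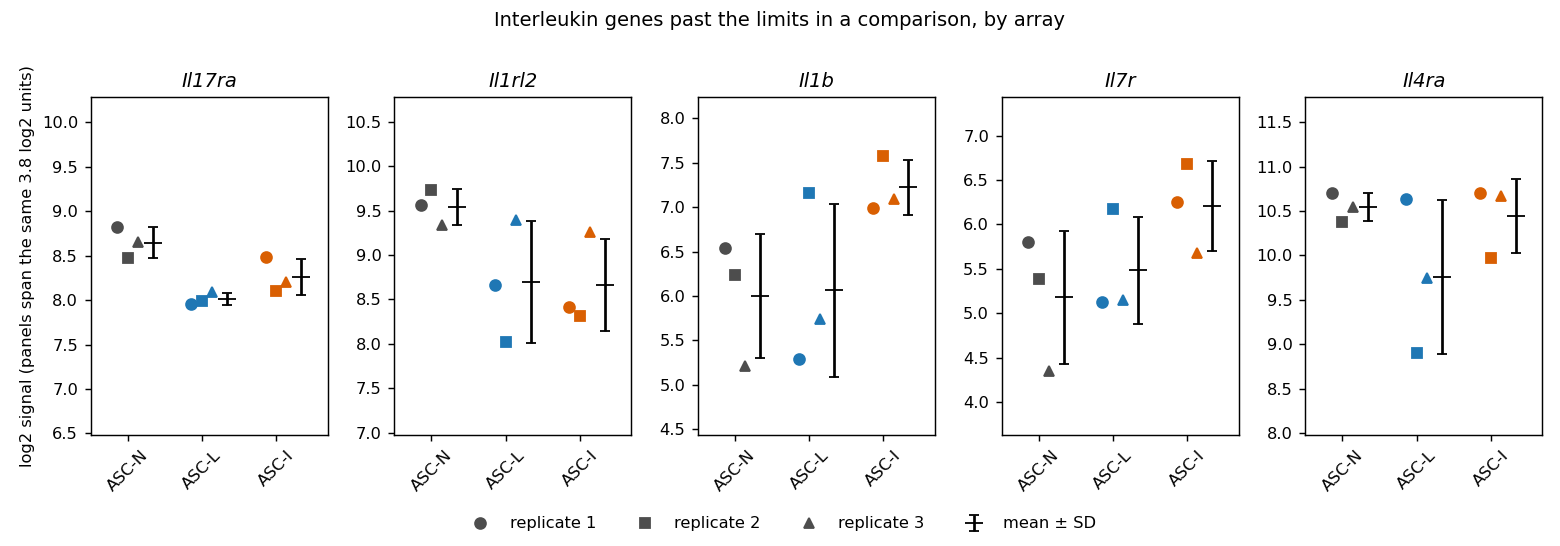
Log2 signal of Il17ra, Il1rl2, Il1b, Il7r and Il4ra on each array by stage, with symbols for replicate numbers 1 to 3 and bars for the mean ± SD of 3 arrays; every panel spans 3.8 log2 units and Il4ra passed the limits with the replicate number as a block. Il17ra was lowest on the 3 ASC-L arrays (7.95 to 8.09), Il1b highest in ASC-I (7.00 to 7.58) beside 1 ASC-L array at 7.15, and Il4ra lowest on ASC-L replicates 2 and 3 (8.90 and 9.74).

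In the comparison of ASC-I with ASC-N, Il1b and Il7r rose and Il1rl2 fell. This comparison spans pregnancy and lactation as well as the first days of involution, so it cannot assign a difference to involution alone. The limits were passed in the higher direction by 0.0702% of all genes and in the lower direction by 0.181%. In limma 0 members and 0% of all genes passed an adjusted p of 0.05, with 6 members and 1.56% of all genes at an unadjusted p under 0.05. Arrays did not overlap for 7 members that were higher in ASC-I (3.89% of all genes) and 2 that were lower (2.65% of all genes). The median difference over members was 0.04, beside 0.00 over all genes.

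Il1b encodes IL-1 beta, an inflammatory cytokine made chiefly by activated monocytes and macrophages as an inactive precursor. Its log2 signal was 6.54, 6.24 and 5.21 in ASC-N, 5.30, 7.15 and 5.74 in ASC-L, and 7.00, 7.58 and 7.09 in ASC-I. All 3 ASC-I arrays were higher than all 3 ASC-N arrays, and ASC-L replicate 2 lay within the range of ASC-I. The difference between ASC-I and ASC-N was 1.23 (SE 0.49, 2.34-fold higher, unadjusted p = 0.0329 in limma, adjusted p = 0.9999). It missed the limits in 3 of the 9 fits with 1 array left out, and was 0.83 without ASC-N replicate 3, 1.05 without ASC-I replicate 2 and 1.29 without ASC-I replicate 3. With both arrays of highest epithelial signal left out, replicate 2 of ASC-L and of ASC-I, it was 1.05 (unadjusted p = 0.0225 in limma).

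Il1b was also the 1 member that passed the limits between ASC-L and ASC-I, the comparison of the lactating with the regressing stroma. It fell in ASC-L by 1.16 on the log2 scale (SE 0.49, 2.24-fold lower, unadjusted p = 0.0412 in limma, adjusted p = 0.9996). Over all genes 0.406% passed the limits in this direction and 0.0753% in the other. In limma 0 members and 0% of all genes passed an adjusted p of 0.05, and 3 members and 1.8% of all genes had an unadjusted p under 0.05. Arrays of 2 members were wholly higher in ASC-L (2.96% of all genes) and those of 1 member wholly lower (2.6% of all genes), and the median difference was 0.03 over members and 0.01 over all genes. Without replicate 2 of these stages the Il1b difference was -1.53 (unadjusted p = 0.00587 in limma). It missed the limits in 6 of the 9 fits with 1 array left out: it was -0.78 without ASC-L replicate 1, -0.997 without ASC-L replicate 3, -0.98 without ASC-I replicate 2, -1.27 and -1.22 without ASC-I replicates 1 and 3, and -1.16 without ASC-N replicate 2.

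The macrophage list was high in ASC-I (8.19, 6.97 and 7.19), low in ASC-L (6.45, 6.41 and 6.18) and divided in ASC-N (7.66, 7.59 and 5.87), where its lowest array, replicate 3, was also the lowest for Il1b. On ASC-L replicate 2 Il1b was 7.15 while the macrophage list was 6.41. The part of macrophage content in the Il1b differences was not tested.

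Il7r encodes the receptor chain shared by IL-7 and TSLP, which is known from lymphocytes and their precursors. Its log2 signal was 5.80, 5.39 and 4.35 in ASC-N, 5.12, 6.18 and 5.15 in ASC-L, and 6.25, 6.68 and 5.68 in ASC-I. ASC-I was higher on average, but its replicate 3 lay below ASC-N replicate 1, so the stages overlapped. The value of 4.35 on ASC-N replicate 3 lay below the reference of that array, 5.03. The difference between ASC-I and ASC-N was 1.02 (SE 0.43, 2.03-fold higher, unadjusted p = 0.0409 in limma, adjusted p = 0.9999). It missed the limits in 4 of the 9 fits with 1 array left out, and was 0.61 without ASC-N replicate 3, 0.78 without ASC-I replicate 2, 1.00 without ASC-I replicate 1 and 1.13 without ASC-N replicate 2. With replicate 2 of ASC-L and of ASC-I both left out it was 0.78 (unadjusted p = 0.0858 in limma), outside the limits. Of 31 macrophage markers, 26 were higher in ASC-I than in ASC-N and 29 were lower in ASC-L than in ASC-I. ASC-N replicate 3 was the lowest array for both Il7r and the macrophage list. Between ASC-L and ASC-N, however, 28 of the markers were lower while Il7r was 0.30 higher (SE 0.43). On ASC-I replicate 2, the highest array for Il7r, the macrophage list was 6.97, its lowest value in ASC-I. The list for T and NK cells, which include cells known to express Il7r, stayed between 4.93 and 5.14. The part of either cell type in the Il7r difference was not tested. The ligand gene Il7 was not above the reference.

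Arrays of ASC-L and ASC-I with the same replicate number deviated together, but arrays of different numbers were not compared in this way. The labels do not say whether same-numbered arrays share a day, a batch or mice. With the replicate number as a block, 3 members passed the limits between these stages in place of 1. Il1b fell by 1.16 (unadjusted p = 0.0153 in limma), Il7r by 0.72 (unadjusted p = 0.0284 in limma) and Il4ra by 0.68 (unadjusted p = 0.0233 in limma), with an adjusted p of 0.9964 for all of them. The block raised the calls over all genes too, to 1.04% of genes in both directions together. Without the block the Il7r difference had an unadjusted p of 0.127 and that of Il4ra one of 0.111 in limma. Within each of the 3 numbers ASC-L was lower than ASC-I, by 1.70, 0.42 and 1.36 for Il1b in the order of the numbers, and by 1.12, 0.51 and 0.53 for Il7r. For Il4ra the number 1 pair differed by -0.07, and the other pairs by -1.06 and -0.92.

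Il4ra encodes the receptor chain shared by IL-4 and IL-13, which in stromal cells pairs with Il13ra1. Its log2 signal was 10.70, 10.38 and 10.55 in ASC-N, 10.64, 8.90 and 9.74 in ASC-L, and 10.70, 9.97 and 10.67 in ASC-I. ASC-L replicates 2 and 3 were the lowest 2 arrays, and ASC-L replicate 1 lay within the range of ASC-N. Its difference between ASC-L and ASC-N was -0.78 (SE 0.39, unadjusted p = 0.0747 in limma). With replicate 2 of ASC-L and of ASC-I both left out, and no block, it was -0.35 (unadjusted p = 0.2 in limma), and the difference between ASC-L and ASC-I was -0.50 (unadjusted p = 0.112 in limma). Il13ra1 ranged from 9.09 to 9.75, with a difference of 0.01 between ASC-L and ASC-N (95% interval -0.41 to 0.44). Il13ra2, which binds IL-13 as a decoy, varied between 3.96 and 6.90 and was not above the reference on all arrays of any stage.

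**Figure D3:**
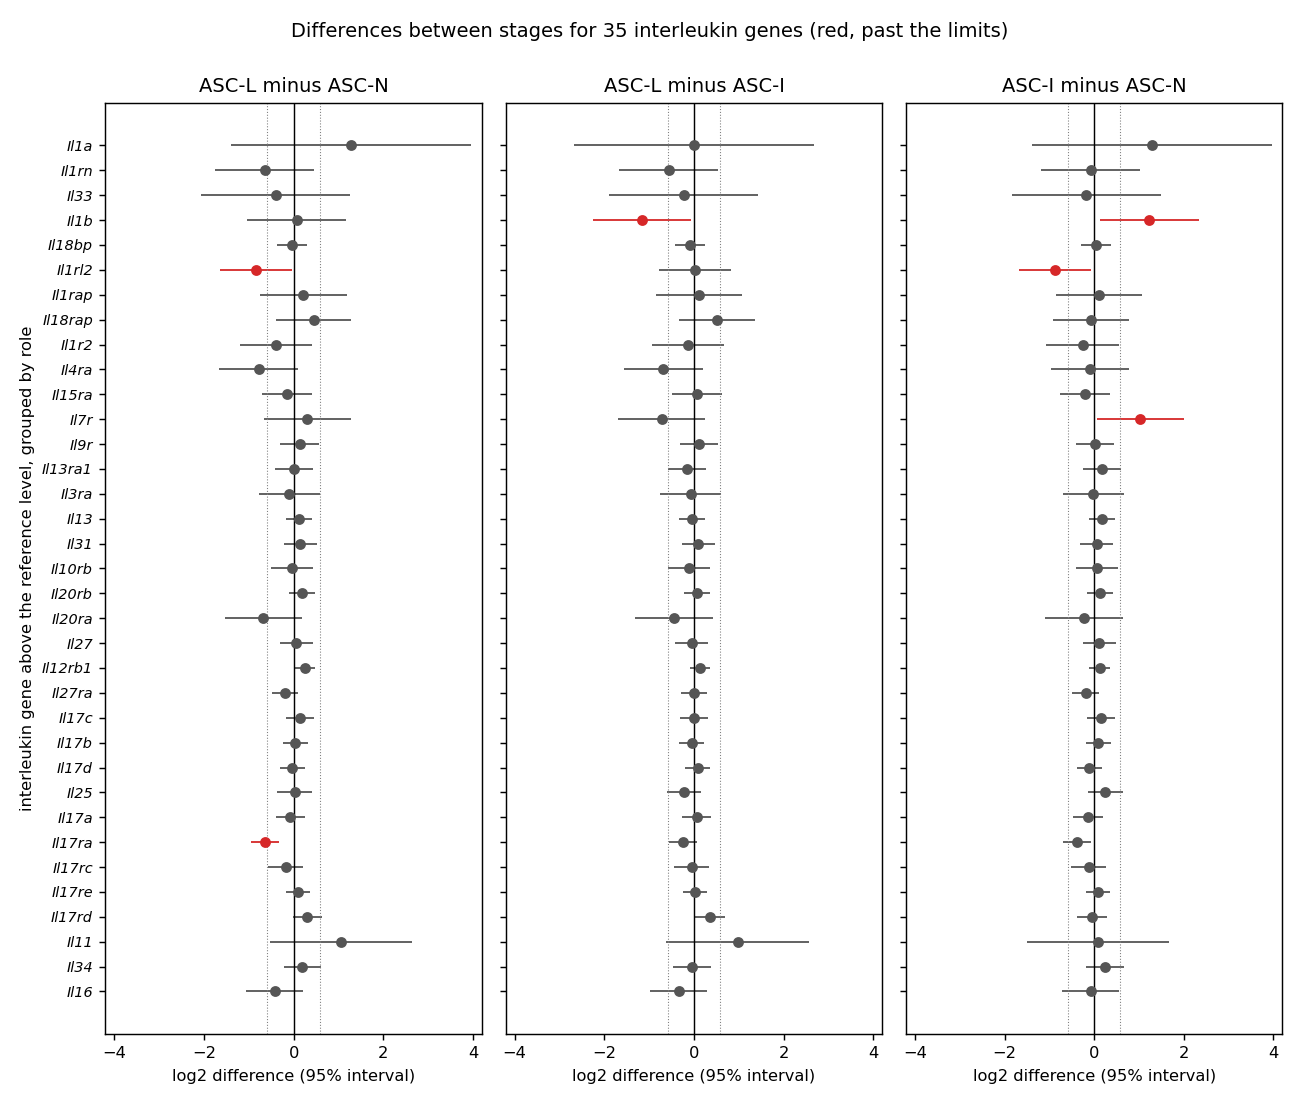
Log2 differences with 95% intervals from limma for the 35 interleukin genes above the reference, in 3 panels for ASC-L minus ASC-N, ASC-L minus ASC-I and ASC-I minus ASC-N, with dotted lines at 1.5-fold and red points past the limits. Red points are Il17ra and Il1rl2 in the first panel, Il1b in the second and Il1b, Il7r and Il1rl2 in the third; the widest intervals belong to Il1a.

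Stretches before the start sites are shown for Il1b, Il7r and Il1rl2, which passed the limits between ASC-I and ASC-N and have an entry. Whether these stretches play a part in the differences was not tested. They are RefSeq sequences of GRCm38.p6, which comes from another strain than Balb/c, written 5′ to 3′ on the strand of the gene and ending where the annotated gene begins. For Il1b this is chr2:129371165-129371389 on the minus strand (225 bases), for Il7r chr15:9529942-9530126 on the minus strand (185 bases) and for Il1rl2 chr1:40324339-40324588 on the plus strand (250 bases). The Il1b stretch also lies within the Il1bos gene. Capitals mark matches, on either strand, to TATAAA (the TATA box), TGANTCA (AP-1), TTCNNNGAA (STAT proteins), GAGGAA (PU.1) and GGANTTTCC (a common form of the NF-kB site).
Il1b: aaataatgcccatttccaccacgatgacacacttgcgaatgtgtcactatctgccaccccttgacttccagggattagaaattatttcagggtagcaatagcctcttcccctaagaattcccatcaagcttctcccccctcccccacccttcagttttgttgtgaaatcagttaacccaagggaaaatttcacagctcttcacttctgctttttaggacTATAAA
Il7r: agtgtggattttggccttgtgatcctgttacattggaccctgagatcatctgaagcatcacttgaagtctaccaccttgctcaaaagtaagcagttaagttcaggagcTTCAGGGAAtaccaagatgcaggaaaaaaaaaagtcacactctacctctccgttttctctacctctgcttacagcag
Il1rl2: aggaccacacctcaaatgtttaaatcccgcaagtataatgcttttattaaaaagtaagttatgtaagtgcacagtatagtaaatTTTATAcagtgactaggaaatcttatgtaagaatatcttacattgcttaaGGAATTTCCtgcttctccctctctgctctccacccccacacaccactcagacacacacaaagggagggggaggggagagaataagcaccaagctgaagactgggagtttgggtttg

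The search covered the 250 bases before the start site that the sequence table uses, which for Il1b and Il7r lies inside the annotated gene. Il1b held TATAAA from 31 to 26 bases before its start site, and Il7r held TTCNNNGAA from 142 to 134 bases before. Il1rl2 held the reverse complement of TATAAA from 166 to 161 bases before and GGANTTTCC from 116 to 108 bases before. TATAAA occurred in 12.4% of 32817 such windows over all genes, TTCNNNGAA in 7.01%, TGANTCA in 6.75%, GAGGAA in 23.3% and GGANTTTCC in 1.07%. GAGGAA can overlap TTCNNNGAA, but no matches overlapped in these windows. These matches describe letters only, and factor binding was not measured.

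Among the other IL-1 family ligands the arrays varied more than the stages. Il1a, the second IL-1 agonist, had a log2 signal of 5.83, 6.49 and 6.39 in ASC-N, 4.56, 10.11 and 7.87 in ASC-L, and 6.22, 8.48 and 7.87 in ASC-I. ASC-L held both the lowest and the highest of the 9 arrays, a 46.8-fold range, and the difference from ASC-N was 1.28 with a 95% interval of -1.40 to 3.95. It ran from -0.02 to 2.75 in the fits that left out 1 array. Between ASC-I and ASC-N Il1a differed by 1.28 (95% interval -1.39 to 3.96). Il1rn, the receptor antagonist that blocks both agonists, was 8.15, 7.50 and 5.97 in ASC-N, 6.05, 6.83 and 6.79 in ASC-L, and 6.82, 7.15 and 7.41 in ASC-I. Its highest arrays, ASC-N replicates 1 and 2, were high for the macrophage list too (7.66 and 7.59). On ASC-I replicate 1, where that list was highest (8.19), Il1rn was 6.82. The part of macrophage content in the Il1rn values was not tested. Between ASC-I and ASC-N Il1rn differed by -0.08 (SE 0.49), beside 1.23 for Il1b. Il33, an alarmin of stromal and endothelial cells, ranged from 5.23 to 8.26, with both ends within ASC-N. Il18bp, which neutralizes IL-18, ranged from 5.70 to 6.14, and Il18 itself was not above the reference. Il1bos, a long noncoding RNA whose gene at chr2:129369902-129375733 overlaps Il1b, ranged from 3.74 to 4.09 and was not above the reference. Il1rap, the accessory chain shared by the receptors for IL-1, IL-33 and IL-36, was highest on replicate 3 of every stage (9.25, 9.58 and 9.03, beside 8.03 to 8.62 on the other arrays). None of 22 measured genes of IL-1 signaling and processing passed the limits in any comparison, with a median difference of -0.08 between ASC-L and ASC-N.

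Several members had their 2 highest signals on the arrays with the highest epithelial markers, where endothelial markers were high too. The share of such members was near that of all genes. Il11, a cytokine that signals through gp130 and is made by stromal and epithelial cells, was 7.87, 6.30 and 7.24 in ASC-N, 8.30, 9.34 and 6.94 in ASC-L, and 6.92, 8.41 and 6.31 in ASC-I. Its difference between ASC-L and ASC-N was 1.06 (95% interval -0.53 to 2.65). Il18r1 was 7.06 on ASC-L replicate 2 and 5.10 on ASC-I replicate 2, and between 3.63 and 4.22 elsewhere. Il24, a ligand of the IL-20 receptors, was 6.68 and 5.34 on these arrays and at most 4.42 on the other 7. Il23a, the specific subunit of IL-23, was 7.06 and 5.84, beside at most 5.42 elsewhere, and Il2ra, the alpha chain of the IL-2 receptor, was 5.74 and 5.33, beside at most 4.44. These 2 arrays were the highest for 7 of the 73 members (9.59%) and for 8.37% of all genes. Among genes above the reference they were so for 3 of 35 members (8.57%) and 10.2% of all genes. Il18r1, Il24, Il23a and Il2ra were not above the reference. ASC-L replicate 2 was highest with a margin of more than 1 over the gene's median for 7 members (9.59%) and for 2.32% of all genes. Without that margin it was highest for 11 members (15.1%) and 16.8% of all genes, and it was lowest for 16 members (21.9%) and 19.8% of all genes. Among genes above the reference it was lowest for 12 of 35 members (34.3%) and 21.5% of all genes. The patterns were noticed in these values and have no test, and the part of epithelial or endothelial content in them was not tested.

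**Figure D4:**
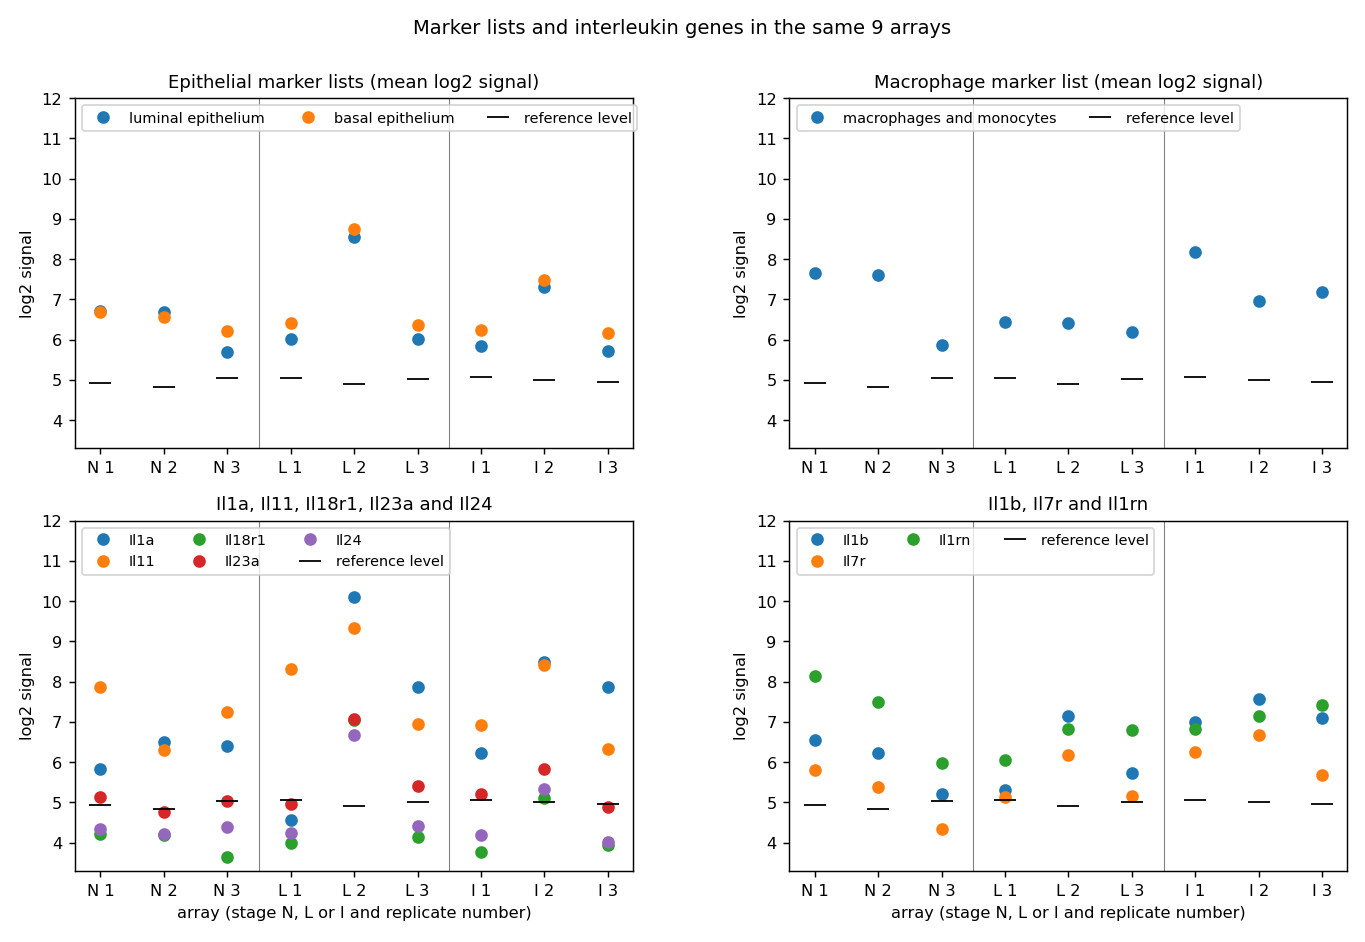
Mean log2 signal of marker lists (upper panels) and log2 signal of single interleukin genes (lower panels) on the 9 arrays, by stage and replicate number, with dashes for the reference level of each array. Il1a, Il11, Il18r1, Il23a and Il24 peak on ASC-L replicate 2, as both epithelial lists do (8.54 and 8.75); the points of Il18r1 and Il23a coincide there at 7.06.

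No member of the remaining groups passed the limits. The receptor chains Il10rb, shared by IL-10 and IL-22 among others, and Il20rb, part of the IL-20 receptors, had 95% intervals that include 0 in all comparisons, with Il10rb at -0.04 between ASC-L and ASC-N (interval -0.51 to 0.42). Il20ra, the second IL-20 receptor chain, was -0.67 (SE 0.38), with its lowest signal, 4.49, on ASC-L replicate 2. Il12rb1, the chain shared by the receptors for IL-12 and IL-23, was 5.72, 5.57 and 5.58 in ASC-N, 5.87, 5.80 and 5.95 in ASC-L, and 5.72, 5.78 and 5.72 in ASC-I. The stages did not overlap in any pair, although the highest ASC-N and the lowest ASC-I values both round to 5.72, and the difference of 0.25 between ASC-L and ASC-N (SE 0.10, unadjusted p = 0.035 in limma) was far under the fold limit. Its partner Il12rb2 was 0.41 higher in ASC-L than in ASC-N (unadjusted p = 0.0177 in limma), at signals of 3.89 to 4.62 that were not above the reference. Il27 and its receptor Il27ra, Il9r, Il13 and Il31 differed by at most 0.20 in size in any comparison.

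Il3ra, the IL-3 receptor chain, ranged from 7.58 to 8.81 and differed by -0.09 between ASC-L and ASC-N (SE 0.30). Il15ra, which presents IL-15 to neighboring cells, ranged from 6.17 to 7.00 and differed by -0.14 (SE 0.25). Il16, known as a ligand of CD4, differed by -0.42 (SE 0.28). Il34, a second ligand of the receptor encoded by Csf1r, ranged from 5.72 to 6.46 and differed by 0.20 (SE 0.19). Csf1r, a macrophage marker, fell in ASC-L relative to ASC-N by 1.07 on the log2 scale (SE 0.45, unadjusted p = 0.0417 in limma), and it was the 1 gene of 10 partner chains and related cytokines outside the rule that passed in any comparison. Of 17 measured Janus kinases, STAT proteins and their regulators, none passed, with a median difference of -0.13 between ASC-L and ASC-N.

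The 38 members that were not above the reference included Il18r1, Il13ra2, Il23a and Il24, with signals of up to 7.06 on single arrays. Members spread more widely over the 9 arrays than genes in general: 10 of 73 (13.7%) had a range over 2 log2 units, compared with 4.29% of all genes, and 25 (34.2%) had a range over 1, compared with 17.5%. Among genes above the reference the shares over 2 were 17.1% for members and 5.22% for all genes. Replicate 3 was the highest array within each stage for 10 members (13.7%) and 7.96% of all genes, Il1rap, Il10rb and Il23r among them. Replicate 2 was so for 4 members (5.48%) and 12.6% of all genes, and replicate 1 for 5 (6.85%) and 4.40%.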

How the data were processed

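RNA from 9 cultures of adipose stromal cells was hybridized to Affymetrix Mouse Gene 1.0 ST arrays. The authors deposited log2 signals, made per their methods by robust multi-array averaging, whereas GCRMA and limma, with no version, are named in the submitters' processing notes. The median signal of an array was 5.93 to 6.00. Probe sets with 1 symbol were averaged per gene. limma 3.58.1 in R 4.3.3 was fitted to all 19930 genes with 1 mean per stage over all 9 arrays, and p-values were adjusted by Benjamini-Hochberg over all genes. A gene passed at an unadjusted p under 0.05 and 1.5-fold. The fit was tested on simulated data. The small number of arrays limits the precision, and log2 signals carry no counts.

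Named genes are every member that passed and the 5 highest members. Up to 4 further members above the reference were named in each role list by largest difference. Il1f9, Il7, Il12rb2, Il13ra2, Il17rb, Il18, Il18r1, Il23a, Il23r, Il24, Il2ra and Il1bos were named after their values were seen. The members, lists and tests were chosen with earlier results of these data known. Correlations between ASC-L and ASC-I arrays of the same number, as deviations from the stage means, were 0.47, 0.73 and 0.46. All 73 members matched RefSeq (GRCm38.p6), and 56 had a promoter entry. The study's filter on detection on all arrays was not applied.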

Additional observations from a re-analysis of the deposited data

How the results depend on the processing

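The number of interleukin genes past the limits was 2 between ASC-L and ASC-N, 1 between ASC-L and ASC-I and 3 between ASC-I and ASC-N, and none of these 6 differences reversed its sign under any alternative run. With an intensity trend and a robust prior the count for ASC-L against ASC-I was 0, since Il1b had an unadjusted p of 0.0505 in limma, and with quantile normalization that for ASC-L against ASC-N was 1, since Il1rl2 had one of 0.0515. With the replicate block it was 3 for ASC-L against ASC-I; it was also 3 for ASC-L against ASC-N, where Il4ra was added, and 3 for ASC-I against ASC-N, although same-numbered arrays of those pairs of stages did not all deviate together (correlations from -0.08 to 0.50). With replicate 2 of both ASC-L and ASC-I left out it was 1 for ASC-L against ASC-N and 2 for ASC-L against ASC-I and for ASC-I against ASC-N (Il1b and Il21r in each). With only the arrays of the stages compared it was 4 for ASC-I against ASC-N, with Il1a added. Leaving out 1 array in turn gave 0 to 6 for ASC-L against ASC-N, 0 to 3 for ASC-L against ASC-I and 1 to 3 for ASC-I against ASC-N, with the 6 without ASC-L replicate 1, where 2.03% of all genes passed. Over these fits the share of all genes past the limits ran from 0.401% to 2.03%, from 0.181% to 1.66% and from 0.161% to 1.11%. The cause of the other shifts was not tested. At single genes, 74 of the alternative values stayed past the limits and 28 did not. The 74 include runs on single probe sets, which repeat the main differences because each of these genes has 1 probe set. Members above the reference numbered 45 with the 90th percentile and 27 when all 9 arrays were required. Members near the reference are close to the limit of detection of the arrays, so small differences among them could not be resolved.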
